A study of Bos taurus with 6 samples.

Results

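The HOX genes of cluster A, B, C and D and the genes of their DNA-binding partners MEIS, PBX and PKNOX were followed across the forebrain, the liver and the rumen of bovine fetuses. With earlier results of these data known, members were taken by symbol. These were every symbol made of HOX, a cluster letter and a number, with the numbered MEIS, PBX and PKNOX genes. This gave 31 of the 14179 gene symbols in the count table, namely 22 HOX genes, 3 MEIS genes, 4 PBX genes and 2 PKNOX genes. All 31 symbols are listed in the RefSeq gene table of assembly ARS-UCD2.0, which holds 39 HOX genes. The members cover 7 of 11 genes of HOXA, 6 of 10 of HOXB, 5 of 9 of HOXC and 4 of 9 of HOXD, and the other HOX genes were not analysed here.

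HOX genes code for homeodomain transcription factors that give cells their position along the body axis. They stand in clusters in which low paralog numbers lie at the 3′ end and are used from the hindbrain backwards, while high numbers at the 5′ end are used in the trunk, the limbs and the hindgut. The forebrain lies in front of the region in which HOX genes are used. MEIS, PBX and PKNOX proteins belong to the TALE class of homeodomain factors, bind DNA together with HOX proteins and also act without them, for instance in the developing brain.

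Poly(A) RNA of the 3 tissues was sequenced with 2 libraries per tissue, numbered 1 and 2 after the tissue's name (Forebrain 1, Forebrain 2 and so on). The rumen is the largest chamber of the forestomach of cattle. All libraries came from wild-type, untreated male Holstein fetuses of 90 days, collected at a slaughterhouse and aged by a crown-rump length of 13 to 16 cm, and the study had 2 male fetuses, so the tissues shared animals. Which fetus gave which library is not stated, so p-values measure the spread between these libraries, which may be technical.

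Total counts lay between 10271024 and 18528958 per library, and levels are given as CPM, which are counts relative to a library total scaled by TMM factors. The detection floor, 3 counts from a tissue's library pair, was worth 0.115 CPM for forebrain, 0.103 CPM for liver and 0.116 CPM for rumen, which covers counting error only. Tissue markers followed the labels: the summed forebrain markers stood at 7790 and 7920 CPM in forebrain and at most at 280 elsewhere. The hepatocyte markers reached 122000 and 177000 CPM in liver, and those of rumen epithelium 11600 and 14200 CPM in rumen. The liver libraries were least alike, with a correlation of log2 CPM across genes of 0.923, against 0.988 in forebrain and 0.984 in rumen, and erythroid markers summed to 146000 CPM in Liver 1 and 55400 in Liver 2. Fewer cells of a type and less RNA per cell cannot be told apart in such bulk tissue.

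HOX RNA was nearly absent from the forebrain, present in the liver from clusters A and B, and present in the rumen from all 4 clusters. In forebrain, 20 of 22 HOX genes had no counts, and HOXB2 and HOXB3 had 1 count each in 1 library. In liver, 12 of 22 HOX genes had at least 3 counts over both libraries, made up of 7 of 7 HOXA genes, 4 of 6 HOXB genes, 1 of 5 HOXC genes and 0 of 4 HOXD genes. In rumen, 15 of 22 did, made up of 6 of 7 HOXA genes, 5 of 6 HOXB genes, 3 of 5 HOXC genes and 1 of 4 HOXD genes. HOXB1, HOXC11, HOXC12, HOXD11 and HOXD12 had no counts in any library, which allows a level of up to the floor in each tissue.

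**Figure D1:**
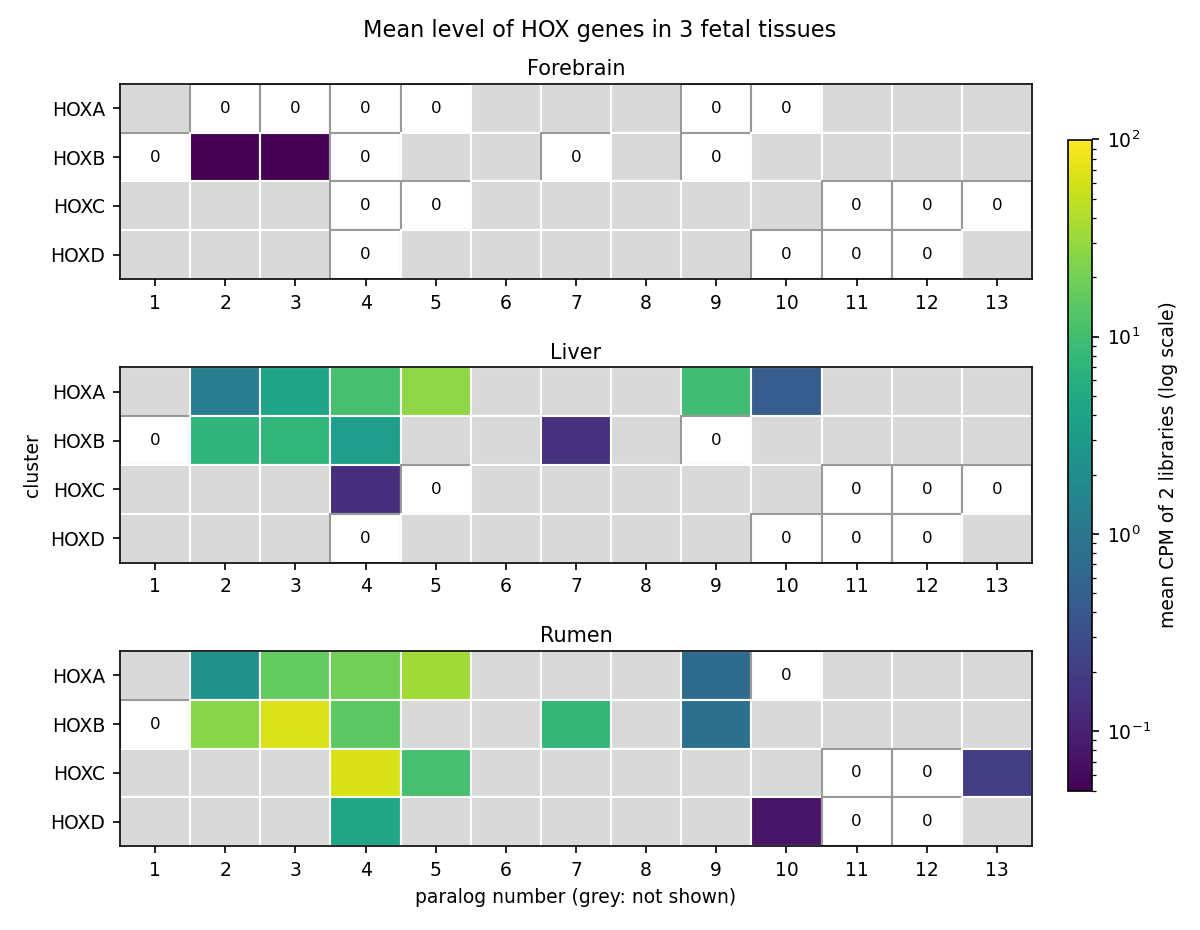
Mean CPM of the 2 libraries of each tissue for 21 of the 22 HOX genes (colour, log scale), with clusters as rows and paralog numbers as columns; 0 marks genes without counts and grey marks positions not shown. In forebrain only HOXB2 and HOXB3 carry a value, in liver the values stand in HOXA, HOXB and HOXC4, and in rumen they stand in all 4 clusters, mostly at paralog numbers 2 to 9.

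Summed over the 22 genes, the HOX level was 0.0813 and 0.0722 CPM in the forebrain pair, 57.3 and 86.3 CPM in the liver pair, and 254 and 277 CPM in the rumen pair. The 3 tissues did not overlap. The pooled ratio of rumen to liver was 3.64 (95% counting interval 3.47 to 3.82). Against the forebrain, with 2 HOX counts in all, the ratio was 953 in liver (263 to 7870) and 3470 in rumen (960 to 28600). These exact intervals hold for the counts of these libraries and leave out the spread between animals.

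Expression was tested with edgeR's quasi-likelihood test on 11478 genes that passed a filter on low counts, with Benjamini-Hochberg adjustment and a threshold of 0.05. The filter kept 21 of the 31 members, 12 HOX genes and all 9 partner genes. It keeps a gene that is high in 1 tissue alone, so calls among the kept HOX genes describe these genes and not the clusters as a whole. Any 2 of the 3 comparisons share the libraries of 1 tissue.

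Rumen against forebrain, 11 of the 12 tested HOX genes were higher in rumen and 0 were lower, in a comparison in which 41.8% of all tested genes passed (20.3% higher, 21.5% lower). By cluster these were 4 of 5 HOXA genes, 4 of 4 HOXB genes, 2 of 2 HOXC genes and the 1 HOXD gene. No HOX gene was lower at an unadjusted p under 0.05 in edgeR (0 genes), nor by DESeq2 (0 genes). The median log2 difference of the 12 genes was 7.07, with genes without forebrain counts set at their bound, and -0.01 over all tested genes. HOXA9 did not pass in edgeR (adjusted p = 0.174) and passed in DESeq2, which called 12 of 12. Plain totals moved the median of all genes by -0.16 in this comparison.

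Liver against forebrain, 8 of the 12 tested HOX genes were higher in liver and 0 were lower by edgeR or DESeq2 (0 also at an unadjusted p under 0.05), beside 57.8% of all tested genes called (30.5% higher, 27.3% lower). These were 5 of 5 HOXA genes and 3 of 4 HOXB genes. The 4 others, HOXB7, HOXC4, HOXC5 and HOXD4, had 4, 4, 0 and 0 counts over both liver libraries and none in forebrain. Of these, HOXC4 was called in liver by the older quasi-likelihood fit of edgeR (3.98, adjusted p = 0.0435). Plain totals moved the median of all genes by -0.49 here and the share of higher genes among all calls from 52.8% to 39.2%, with these 8 HOX genes still called. HOXA2 was no longer called in liver without either Forebrain library, Liver 1 or either Rumen library, nor with only these 2 tissues in the fit.

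Rumen against liver, 8 of the 12 tested HOX genes were higher in rumen and 1, HOXA9, was lower, beside 43.0% of all tested genes called (21.2% higher, 21.8% lower). The higher genes were 1 of 5 in HOXA, 4 of 4 in HOXB, 2 of 2 in HOXC and the 1 tested gene of HOXD. The median log2 difference of the 12 genes was 2.02 and that of all tested genes -0.06. Scaling by plain totals in place of TMM moved the median of all genes by 0.33, and the share of higher genes among all calls from 49.3% to 62.2%. The same HOX genes were called under that scaling. Over all 21 tested members 13 were higher in rumen. Fewer were without either Rumen library or either Forebrain library, and more without Liver 2. The number called among all tested genes moved the same way.

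**Figure D2:**
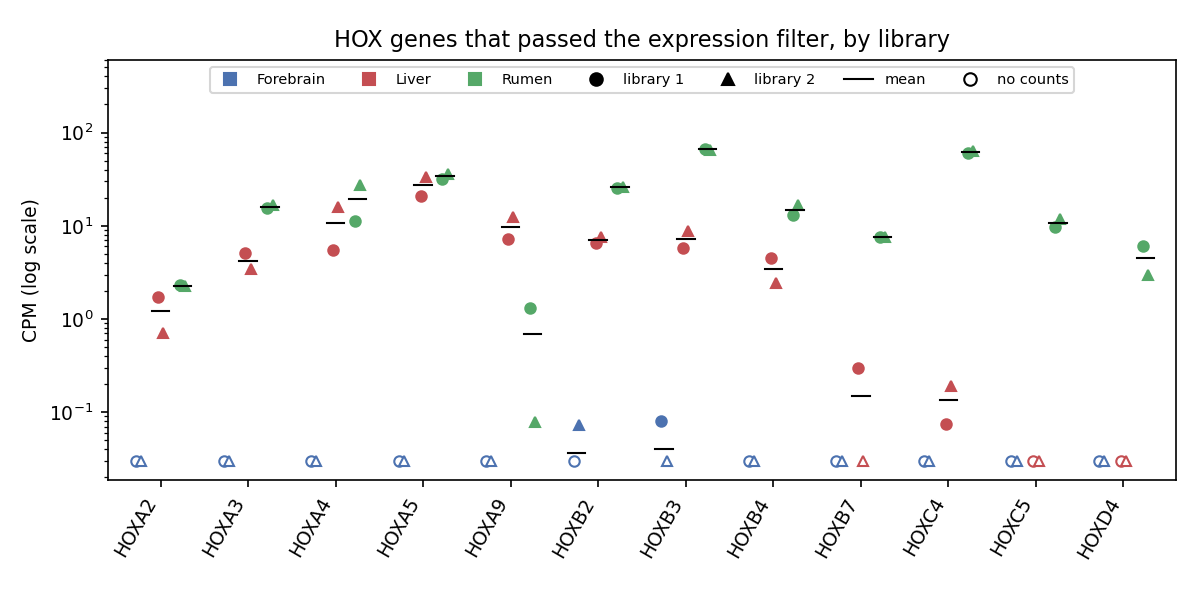
CPM (log scale) of the 12 HOX genes that passed the filter, by tissue and library, with the mean of each tissue as a bar and open symbols for libraries without counts. Rumen lies above liver in HOXB2, HOXB3, HOXB4, HOXB7, HOXC4, HOXC5, HOXD4 and HOXA3, both tissues overlap in HOXA4 and HOXA5, and liver lies above rumen in HOXA9.

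Cluster A was the one with counts from every analysed gene in liver. In the RefSeq annotation HOXA3 overlaps HOXA4 and HOXA5, HOXA5 overlaps HOXA6 and, in cluster D, HOXD4 overlaps HOXD3. The strand setting of the counting is not stated, so reads of these genes may not be told apart. HOXA5, which in the mouse is needed for trachea and lung development, stood at 20.8 and 33.7 CPM in Liver 1 and 2, at 32.0 and 36.1 CPM in Rumen 1 and 2 and at 0 in forebrain. Liver 2 lay above Rumen 1, so both tissues overlapped, and the log2 difference of rumen minus liver was 0.32 ± 0.35 (SE, edgeR adjusted p = 0.499), and 0.71 without Liver 2, when it was called (adjusted p = 0.0364). Against the forebrain HOXA5 was at least 241-fold higher in liver and at least 296-fold higher in rumen.

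HOXA4, its neighbour in the cluster, stood at 5.43 and 15.8 CPM in liver and at 11.2 and 27.2 CPM in rumen, without counts in forebrain. Library 2 exceeded library 1 in both tissues, 2.91-fold in liver (95% counting interval 2.23 to 3.83) and 2.44-fold in rumen (2.00 to 2.98), so the tissues overlapped. The log2 difference of rumen minus liver was 0.84 ± 0.66 (edgeR adjusted p = 0.348), and 1.82 without Liver 2, when it was called (adjusted p = 0.012). HOXA4 was at least 95.9-fold higher in liver and 167-fold higher in rumen than in forebrain.

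HOXA3, a gene of pharyngeal arch and thymus development, stood at 5.06 and 3.40 CPM in liver and at 15.4 and 16.7 CPM in rumen, again without counts in forebrain. It was the 1 HOXA gene called higher in rumen than in liver, by 1.93 ± 0.43 on the log2 scale (edgeR adjusted p = 0.015). This call was lost without Rumen 1 (1.98, adjusted p = 0.0864) and without Rumen 2 (1.89, adjusted p = 0.0993). Its bound against forebrain was 36.4-fold in liver and 140-fold in rumen.

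HOXA2, known for its part in patterning the hindbrain and the pharyngeal arches, stood at 1.71 and 0.707 CPM in liver and at 2.30 and 2.26 CPM in rumen. The rumen libraries lay above the liver libraries, but the log2 difference of 0.94 ± 0.67 did not pass (edgeR adjusted p = 0.304). Both tissues were called above the forebrain, at least 10.2-fold in liver and 19.9-fold in rumen, and the rumen call was lost without any 1 of the Forebrain or Rumen libraries (adjusted p from 0.0671 to 0.101).

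The 5′ genes of cluster A had the reverse order of tissues. HOXA9, a factor of blood progenitors and of the posterior trunk, stood at 7.15 and 12.3 CPM in Liver 1 and 2, at 1.30 and 0.0780 CPM in Rumen 1 and 2 and at 0 in forebrain. Rumen was lower than liver by 3.80 ± 0.84 on the log2 scale (edgeR adjusted p = 0.0143). The rumen value rested on 17 counts in Rumen 1 and 1 count in Rumen 2. Without Rumen 2 the difference was -2.88 and was no longer called (adjusted p = 0.0893), and the older quasi-likelihood fit of edgeR gave an adjusted p of 0.0534. HOXA9 was at least 86.6-fold higher in liver than in forebrain.

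HOXA10, the next gene of the cluster, had 1 count in Liver 1, 13 counts in Liver 2 and none in forebrain or rumen, and was not tested. Some of the other marker lists with liver signal are given beside these genes. The 5 endothelium markers summed to 715 and 492 CPM in liver, 188 and 157 CPM in rumen and 78.4 and 96.2 CPM in forebrain. Of 6 markers of haematopoietic stem and progenitor cells, 5 were in the table, and they summed to 282 and 321 CPM in liver, 131 and 171 in rumen and 165 and 229 in forebrain. Of 4 megakaryocyte markers, 2 were in the table, at 1310 and 1040 CPM in liver and at most 15.8 CPM in rumen and 3.90 in forebrain. Of 4 kidney and gonad markers, 2 were in the table, at 116 and 257 CPM in liver from CDH16, with LHX1 at 0. Both were at 0 in rumen, and they summed to 8.13 and 7.43 CPM in forebrain. The part of these cells in the HOXA9 result was not tested.

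Cluster B was higher in rumen than in liver at every tested gene. HOXB3 stood at 5.81 and 8.80 CPM in liver and at 67.2 and 64.5 CPM in rumen, with 1 count in Forebrain 1. The difference of rumen minus liver was 3.16 ± 0.35 on the log2 scale (edgeR adjusted p = 0.000747), and it was called in each fit without 1 library. HOXB3 overlaps HOXB4, HOXB5 and HOXB6 in the RefSeq annotation, with the same limit on telling their reads apart.

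HOXB2, a gene of the hindbrain and of neural crest, stood at 6.48 and 7.58 CPM in liver and at 25.4 and 26.2 CPM in rumen, with 1 count in Forebrain 2. HOXB4, also studied as a factor of blood stem cells, stood at 4.47 and 2.44 CPM in liver and at 13.1 and 16.6 CPM in rumen, without counts in forebrain. Rumen exceeded liver by 1.87 ± 0.35 for HOXB2 (edgeR adjusted p = 0.00657) and by 2.12 ± 0.48 for HOXB4 (adjusted p = 0.0166) on the log2 scale. Neither was called without Rumen 1 (adjusted p of 0.0522 and 0.0769) or without Rumen 2 (0.0537 and 0.112).

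HOXB7, a gene of trunk levels, had few counts in liver, at 7.65 and 7.49 CPM in rumen, 0.298 CPM in Liver 1 and 0 in Liver 2. With 4 counts in liver the pooled ratio was 54.9 (95% counting interval 21.1 to 204). The fitted log2 difference was 5.68 ± 0.95 (edgeR adjusted p = 0.00256), and 4.62 without Liver 2. HOXB9 had 16 counts in Rumen 1, 5 counts in Rumen 2 and none in liver or forebrain, and was not tested.

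Against the forebrain, the pooled count ratios were 185 in liver for HOXB2 (32.8 to 7340) and 194 for HOXB3 (34.4 to 7690). In rumen they were 675 (121 to 26700) and 1720 (309 to 68000). HOXB4 was at least 29.5-fold higher in liver and 129-fold higher in rumen, and HOXB7 at least 66.0-fold higher in rumen. All of these were called (edgeR adjusted p from 0.000135 to 0.00683).

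Cluster C had 1894 counts in rumen, 4 in liver and 0 in forebrain. HOXC4 stood at 60.8 and 63.8 CPM in Rumen 1 and 2, with 1 and 3 counts in Liver 1 and 2 and none in forebrain. The ratio of rumen to liver was 452 (95% counting interval 176 to 1660), and the fitted log2 difference was 8.73 ± 0.51 (edgeR adjusted p = 4.67e-05). HOXC5 stood at 9.72 and 11.7 CPM in rumen and had no counts in liver or forebrain, so that rumen was at least 103-fold above liver and 93.3-fold above forebrain (edgeR adjusted p = 0.00344 and 0.0039). HOXC4 was at least 543-fold above forebrain in rumen. These calls held in each fit without 1 library. HOXC13, a gene of hair and nail formation, had 5 counts in Rumen 2 alone.

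Of cluster D, HOXD4 was the 1 gene with more than 2 counts, at 6.05 and 2.97 CPM in Rumen 1 and 2 and without counts in the other tissues. Rumen 1 lay above Rumen 2, with a ratio of Rumen 2 to Rumen 1 of 0.491 (0.324 to 0.731). HOXD4 was at least 43.7-fold higher than in liver and 39.4-fold higher than in forebrain (edgeR adjusted p = 0.0138 and 0.0155). Without Rumen 1 neither call was made, and without either Forebrain library the call against forebrain was lost. HOXD10 had 2 counts, both in Rumen 1.

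**Figure D3:**
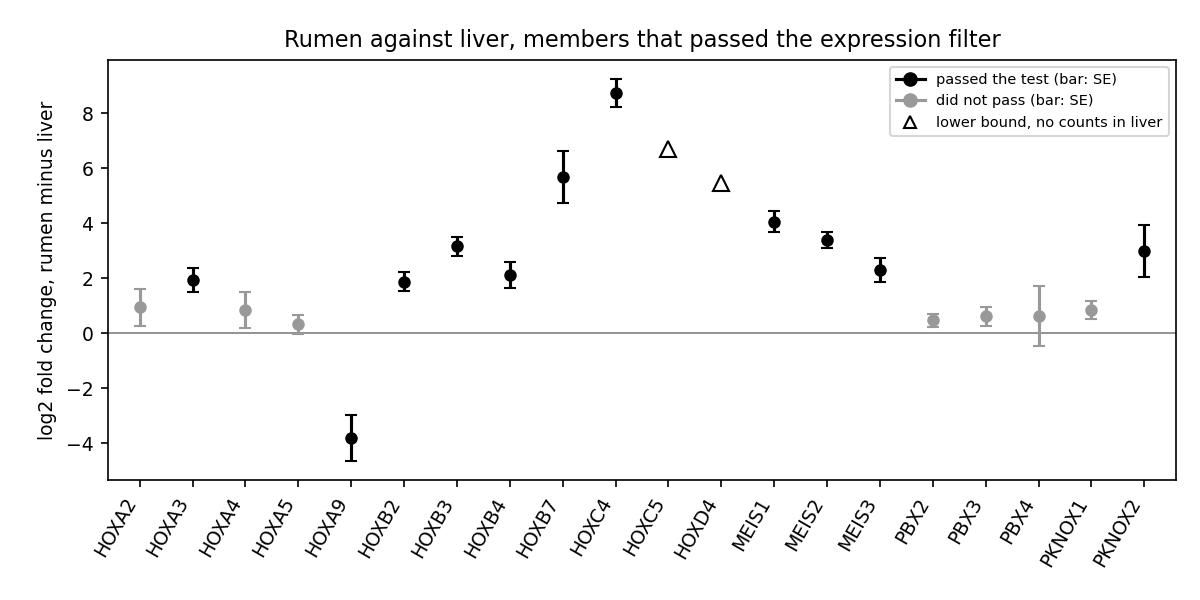
Log2 difference of rumen minus liver from edgeR for 20 of the 21 members that passed the filter, with SE bars, black where the test passed, grey where it did not and triangles for lower bounds of genes without liver counts. HOXC4 stands highest at 8.73, HOXA9 is the 1 member called below 0 at -3.80, and all 3 MEIS genes lie above 2.

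The make-up of the counts of the 22 analysed HOX genes differed between liver and rumen by cluster. Shares are of these genes and not of all HOX genes. HOXA gave 70.1% and 78.0% of HOX counts in the liver pair against 24.7% and 29.9% in the rumen pair. HOXB gave 29.7% and 21.8% in liver and 45.1% and 41.6% in rumen. HOXC gave 0.130% and 0.223% in liver and 27.8% and 27.4% in rumen. The tissues overlapped for none of these 3 clusters. Such shares are not scaled by gene length, so they are compared between tissues and not between clusters.

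Summed levels showed on which cluster the tissues came closest. HOXA summed to 40.2 and 67.2 CPM in liver and to 62.6 and 82.8 CPM in rumen, so Liver 2 lay above Rumen 1. HOXB summed to 17.0 and 18.8 CPM in liver and to 115 CPM in each rumen library. HOXC summed to 0.0744 and 0.193 CPM in liver and to 70.5 and 75.9 CPM in rumen. HOXA was thus the cluster in which both tissues overlapped, and no test was made on these sums.

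By paralog number, the summed level of the low and middle groups stood higher in rumen and that of the high group in liver. Paralogs 1 to 3 summed to 19.1 and 21.0 CPM in liver and to 111 and 110 CPM in rumen, and 3 of 4 tested genes were called higher in rumen. Paralogs 4 to 8 summed to 31.0 and 52.1 CPM in liver and to 140 and 166 CPM in rumen, with 5 of 7 tested genes called higher. Paralogs 9 to 13 summed to 7.22 and 13.2 CPM in liver and to 2.68 and 0.858 CPM in rumen, from 9 analysed genes of which HOXA9 alone was tested. HOXA9 gave 7.15 and 12.3 CPM of this sum in liver, while HOXB9, HOXC13 and HOXD10 had counts in rumen alone.

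**Figure D4:**
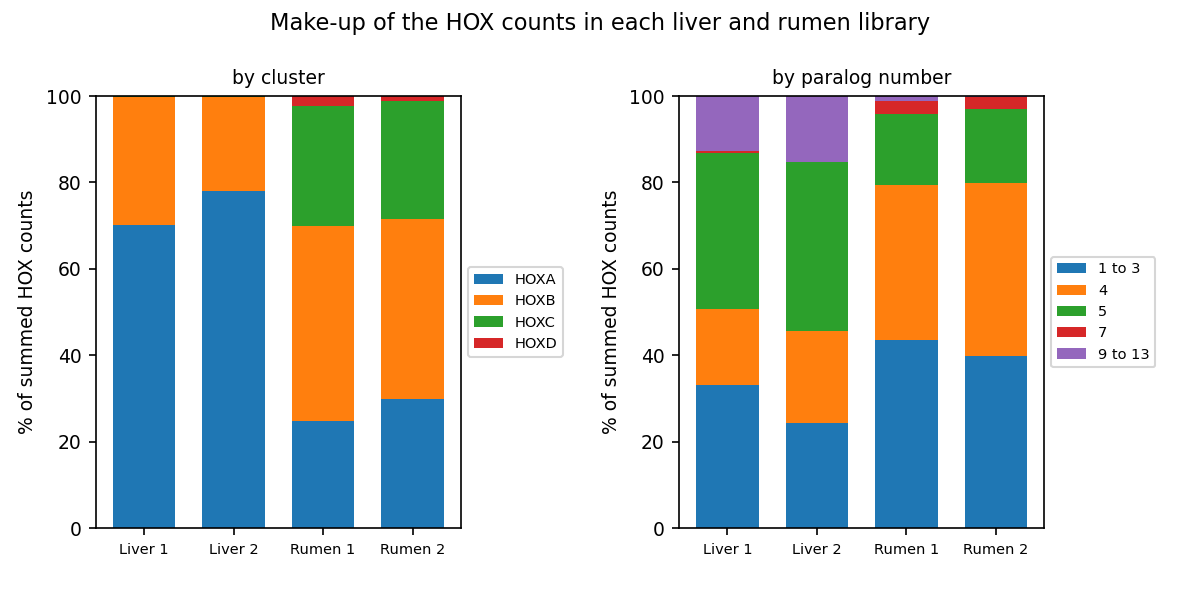
Share of the summed counts of the 22 analysed HOX genes (%) in each liver and rumen library, split by cluster (left) and by paralog number (right). HOXA holds 70.1% and 78.0% in liver against 24.7% and 29.9% in rumen. Paralogs 9 to 13, in liver mostly HOXA9, hold 12.6% and 15.3% in liver against 1.06% and 0.310% in rumen.

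Within the shares, paralog 5 gave 36.2% and 39.0% of HOX counts in liver and 16.4% and 17.2% in rumen. Paralog 3 gave 19% and 14.1% in liver and 32.5% and 29.3% in rumen, and paralog 4 gave 17.4% and 21.4% in liver and 35.9% and 40.0% in rumen. Paralog 2 did not separate the tissues, with 14.3% and 9.61% in liver and 10.9% and 10.3% in rumen. At paralog 4, the one number analysed in all 4 clusters, HOXA4 and HOXB4 had liver counts in both libraries, HOXC4 had 4 liver counts and HOXD4 had none. In rumen all 4 had counts in both libraries.

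The sums of stromal markers were highest in rumen and lowest in forebrain. The 6 smooth muscle markers summed to 5840 and 6120 CPM in rumen, 79.7 and 72.6 in liver and 31.8 and 43.3 in forebrain. The 5 fibroblast and matrix markers summed to 13000 and 13800 CPM in rumen, 849 and 666 in liver and 143 and 189 in forebrain. Single markers went both ways in liver against forebrain. Of the smooth muscle markers 2 were higher and 1 lower, and of the fibroblast and matrix markers 3 were higher and 1 lower. All tested genes were 30.5% higher and 27.3% lower there. No marker of either list was at 0 in any tissue, and their part in the HOX and MEIS results was not tested. Of 11 hindbrain and spinal cord markers, 3 were in the table, with LBX1 at 0 in all tissues. They summed to 3.74 and 2.81 CPM in forebrain, 3.5 and 1.54 CPM in liver and 0 and 0.546 CPM in rumen. GBX2 gave 3.66 and 2.81 CPM of this in forebrain and 3.5 and 1.54 CPM in liver, so the list did not separate these tissues.

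The partner genes, unlike the HOX genes, had counts in every library of every tissue. As a group of 9, they summed to 568 and 436 CPM in forebrain, 149 and 154 CPM in liver and 699 and 732 CPM in rumen. The liver was lowest and the rumen highest without overlap. The place of rumen above forebrain rested on MEIS1 alone, at 345 and 371 CPM in rumen and 36.3 and 20.1 CPM in forebrain. Rumen against forebrain, 2 of 9 were higher and 2 lower, beside 20.3% and 21.5% of all tested genes. Rumen against liver, 5 were higher and 0 lower by edgeR or DESeq2 (0 lower at an unadjusted p under 0.05), beside 21.2% and 21.8%. Liver against forebrain, 1 was higher and 5 were lower, beside 30.5% and 27.3%.

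**Figure D5:**
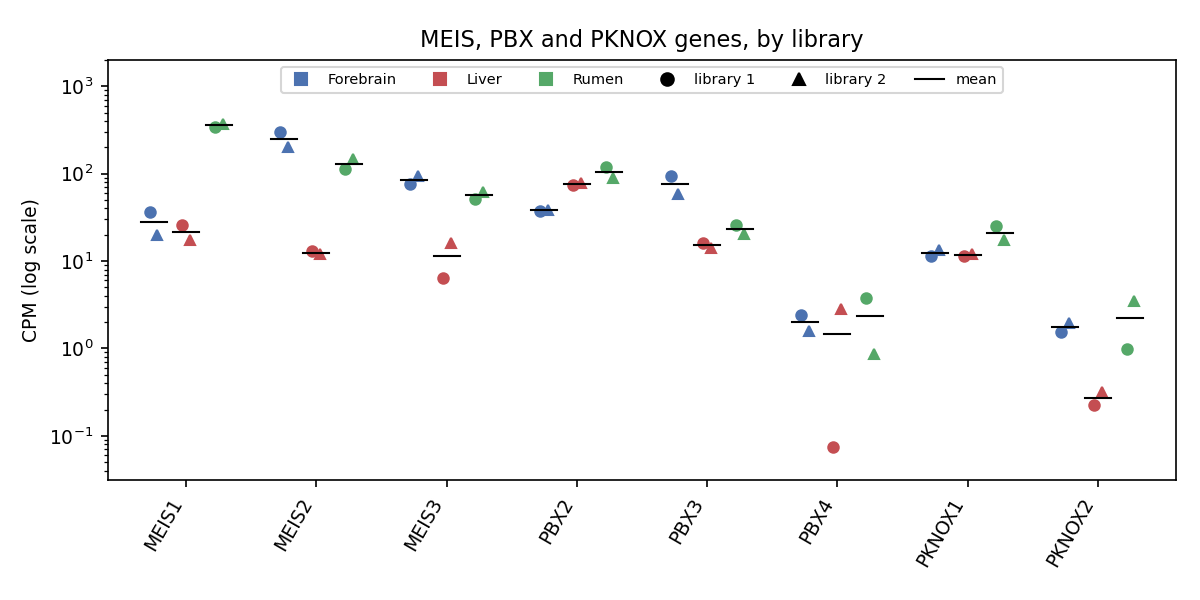
CPM (log scale) of 8 of the 9 MEIS, PBX and PKNOX genes by tissue and library, with the mean of each tissue as a bar. MEIS1 is highest in rumen at 345 and 371 CPM, MEIS2 and PBX3 are highest in forebrain, and the liver is lowest in MEIS2 and MEIS3.

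The 3 MEIS genes differed in the tissue where they were highest. MEIS1, a cofactor of HOXA9 in blood progenitors that also acts in mesenchyme, stood at 36.3 and 20.1 CPM in forebrain, 25.7 and 17.3 CPM in liver and 345 and 371 CPM in rumen. Rumen was higher than forebrain by 3.67 ± 0.36 and than liver by 4.06 ± 0.37 on the log2 scale (edgeR adjusted p = 0.000421 and 0.000295). Liver and forebrain overlapped and did not differ past the threshold (-0.39 ± 0.34, edgeR adjusted p = 0.355).

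MEIS2, which is used in the developing forebrain, stood at 298 and 201 CPM in forebrain, 12.9 and 12 CPM in liver and 113 and 148 CPM in rumen. The order forebrain, rumen, liver held without overlap. Liver was lower than forebrain by 4.33 ± 0.31 and rumen higher than liver by 3.39 ± 0.30 on the log2 scale (edgeR adjusted p = 6.58e-05 and 0.000277). Rumen was lower than forebrain by 0.94 ± 0.26 (edgeR adjusted p = 0.0281), a call lost without any 1 of the Forebrain or Rumen libraries (adjusted p from 0.0544 to 0.244).

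MEIS3, a factor of hindbrain and enteric neural development, stood at 75.6 and 93.2 CPM in forebrain, 6.33 and 16.3 CPM in liver and 51.7 and 61.5 CPM in rumen. Liver was lower than forebrain by 2.89 ± 0.43 and rumen higher than liver by 2.31 ± 0.43 on the log2 scale (edgeR adjusted p = 0.00154 and 0.00569). Liver 2 held 2.58 times the level of Liver 1 (2.01 to 3.34), and without Liver 2 these differences were -3.74 and 3.16. With all libraries, rumen and forebrain did not differ past the threshold (-0.58 ± 0.39, edgeR adjusted p = 0.281). At nearly the same size, the rumen was called lower without Liver 1 (adjusted p = 0.00789), without Liver 2 (0.00762) and with only these tissues in the fit (-0.56, 0.00698).

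The make-up of the MEIS counts changed with the tissue. MEIS1 gave 8.86% and 6.38% of MEIS counts in forebrain, 57.2% and 37.9% in liver, with 67.7% and 64.0% in rumen. MEIS2 gave 72.7% and 64.0% in forebrain, but 28.7% and 26.3% in liver, with 22.2% and 25.4% in rumen. The forebrain stood apart from both other tissues for each of these genes.

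Of the PBX genes, PBX2 was higher in liver than in forebrain and PBX3 was lower. PBX2, the broadly expressed member of the family, stood at 37.9 and 38.2 CPM in forebrain, 73.5 and 77.8 CPM in liver and 120 and 89.7 CPM in rumen. Rumen was higher than forebrain by 1.46 ± 0.24 on the log2 scale (edgeR adjusted p = 0.0033), in each fit without 1 library too. Liver was higher than forebrain by 0.99 ± 0.23 (edgeR adjusted p = 0.0103), a call lost without Forebrain 1 (adjusted p = 0.0853), without Forebrain 2 (0.0834) and with plain totals (0.102). Rumen lay above liver in both libraries, but the difference of 0.47 ± 0.23 did not pass (edgeR adjusted p = 0.141). It was called with plain totals (0.80, adjusted p = 0.0265) and without Liver 2 (0.51, 0.0425).

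PBX3, a factor of neuron types in the brain, stood at 94.9 and 58.0 CPM in forebrain, 15.9 and 14.3 CPM in liver and 25.9 and 20.2 CPM in rumen. The forebrain was highest without overlap. Liver was lower than forebrain by 2.34 ± 0.33 and rumen lower than forebrain by 1.73 ± 0.32 on the log2 scale (edgeR adjusted p = 0.0012 and 0.00598). The rumen call was lost without Forebrain 1 (adjusted p = 0.0706) and without Rumen 2 (0.0709). PBX3 gave 65.6% and 54.7% of PBX counts in forebrain, 17.2% and 14.9% in liver, with 15.9% and 15.4% in rumen, while PBX2 gave 26.2% and 36.1%, 79.3% and 81.2%, and 73.7% and 68.3%.

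PBX4 varied between the libraries of a tissue more than between tissues. It stood at 2.44 and 1.59 CPM in forebrain, 0.0744 and 2.83 CPM in liver and 3.83 and 0.858 CPM in rumen, from 1 and 44 counts in Liver 1 and 2 and 50 and 11 counts in Rumen 1 and 2. All 3 tissues overlapped, and with all libraries PBX4 passed in no comparison (edgeR adjusted p from 0.669 to 0.885). Without Liver 2, which leaves the 1 count of Liver 1, the liver was called lower than rumen (a difference of 4.82 for rumen minus liver, adjusted p = 0.0329) and than forebrain (-4.58, 0.0432).

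Of the PKNOX genes, which code for TALE factors that pair with PBX, PKNOX1 stood at 11.4 and 13.3 CPM in forebrain, 11.5 and 12.1 CPM in liver and 25.3 and 17.2 CPM in rumen. Both rumen libraries lay above the other 4, but with all libraries PKNOX1 passed in no comparison (log2 difference of 0.78, edgeR adjusted p = 0.106 against forebrain, and 0.85, 0.0825 against liver). The rumen was called higher than forebrain without either Liver library (0.78, adjusted p = 0.0199) and with only these tissues in the fit (0.81, 0.0142). It was called higher than liver without Liver 1 (0.82, 0.0429), without Liver 2 (0.89, 0.0324) and with plain totals (1.18, 0.0265). PKNOX2 stood at 1.54 and 1.95 CPM in forebrain, 0.223 and 0.321 CPM in liver and 0.995 and 3.51 CPM in rumen. Liver, with 3 and 5 counts, was lowest without overlap. The log2 difference was 2.98 ± 0.95 for rumen minus liver and -2.63 ± 0.99 for liver minus forebrain (edgeR adjusted p = 0.0353 and 0.0497). The first call was lost without any 1 library other than Rumen 1 (adjusted p from 0.0522 to 0.25), with a difference of 3.63 without Rumen 1 and 1.84 without Rumen 2. The second was lost without either Forebrain or either Liver library (0.0853 to 0.198).

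Genes that act before or beside the HOX clusters were taken from fixed lists. Of 18 inputs to HOX expression, made up of retinoic acid enzymes, receptors and early axial factors, 11 were in the table and 8 were tested. Rumen against forebrain, 4 were higher (ALDH1A1, RARA, RARG, RXRA) and 2 lower (RXRG, GBX2), and the list's median log2 difference was 2.08. Rumen against liver, 4 were higher (CYP26A1, RARA, RARG, RXRG) and 2 lower (RXRB, GBX2), with a median of 0.79. Liver against forebrain, 4 were higher (ALDH1A1, RARA, RXRA, RXRB) and 1 lower (RXRG), with a median of 1.12. The medians of all tested genes were -0.01, -0.06 and 0.14. GBX2 was not called in either rumen comparison without either Forebrain or either Rumen library, and RXRG against liver without any 1 library other than Liver 1, while without either Forebrain or either Rumen library 2 of the list were called higher than in liver. RXRB was not called lower than in liver without Rumen 1 (adjusted p = 0.0567) or Rumen 2 (0.109), which left 0 lower genes of the list there. These counts stand beside 41.8%, 43.0% and 57.8% of all tested genes called in rumen against forebrain, rumen against liver and liver against forebrain, as do those of the lists that follow.

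RARG, a retinoic acid receptor of epithelia and cartilage, stood at 2.36 and 3.25 CPM in forebrain, 5.29 and 3.60 CPM in liver and 89.8 and 69.4 CPM in rumen. Rumen was higher than forebrain by 4.81 ± 0.38 and than liver by 4.17 ± 0.35 on the log2 scale (edgeR adjusted p = 0.000197 and 0.000247). ALDH1A1, an enzyme that makes retinoic acid, stood at 2.36 and 2.60 CPM in forebrain, 36.9 and 71.5 CPM in liver and 97.8 and 77.2 CPM in rumen. It was higher than in forebrain by 5.13 ± 0.46 in rumen and by 4.45 ± 0.45 in liver (edgeR adjusted p = 0.000302 and 0.000272). CDX2, an axial regulator of trunk HOX genes, had no counts in any library.

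Of 9 other TALE genes, 7 were in the table and tested. Rumen against forebrain, 2 were higher (IRX3, TGIF1) and 2 lower (IRX4, IRX6), with a median log2 difference of 0.27. TGIF1 alone was called higher without any 1 of the Forebrain or Rumen libraries. IRX4 was not called lower without Forebrain 1, Rumen 1 or Rumen 2 (adjusted p of 0.0844, 0.0616 and 0.0625), and IRX6 not by DESeq2 (0.0979). Rumen against liver, 3 were higher and 0 lower (also 0 lower by DESeq2 and at an unadjusted p under 0.05), with a median of 3.27. Liver against forebrain, 1 was higher and 4 were lower, with a fitted median of -6.45. That median is the value of MKX, which had no liver counts, was not called and had a bound of 7.76-fold.

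IRX5, a factor of the Iroquois family, had no counts in liver and stood at 48.1 and 26.4 CPM in forebrain and 27.7 and 34.2 CPM in rumen, at least 354-fold and 299-fold higher (edgeR adjusted p = 0.000319 and 0.000644). IRX3, of the same family, stood at 39.2 and 28.8 CPM in forebrain, 0.372 and 0 CPM in liver and 100 and 108 CPM in rumen. Both were thus nearly absent from liver. TGIF1, a TALE repressor, stood at 5.20 and 3.75 CPM in forebrain, 14.4 and 21.9 CPM in liver and 101 and 108 CPM in rumen. Rumen was higher than liver in TGIF1 by 2.52 ± 0.30 on the log2 scale (edgeR adjusted p = 0.000909).

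Chromatin regulators of HOX clusters were called in both directions. Of 15 tested Polycomb genes, which keep HOX genes silent, 5 were higher and 2 lower in rumen than in forebrain, with a median log2 difference of 0.90, so 7 of 15 were called beside 41.8% of all tested genes. With DESeq2's size factors or plain totals 3 were higher and 2 lower. Rumen against liver, 2 were higher and 1 lower (median -0.46), beside 43.0%, and liver against forebrain, 6 were higher and 2 lower (median 0.71), beside 57.8%. In each comparison fewer of these genes were called without any 1 of the Forebrain or Rumen libraries, and more without either Liver library. The number called among all tested genes moved the same way. PCGF2, a Polycomb subunit, stood at 76.4 and 87.4 CPM in forebrain, 15 and 28.6 CPM in liver and 150 and 141 CPM in rumen, and rumen was higher than liver by 2.73 ± 0.33 on the log2 scale (edgeR adjusted p = 0.000981).

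Of 7 tested Trithorax genes, which keep HOX genes active, 1 was higher and 1 lower in rumen than in forebrain (median 0.31), 2 higher and 2 lower in rumen than in liver (median -0.33), and 3 higher and 2 lower in liver than in forebrain (median 0.98). All tested genes were called at 41.8%, 43.0% and 57.8% there. With plain totals the higher and lower counts were 0 and 2, 2 and 0, and 1 and 2. Fewer were called in both rumen comparisons without any 1 of the Forebrain or Rumen libraries, and in liver against forebrain without either Forebrain library. More were called in both comparisons with forebrain without either Liver library. The number called among all tested genes moved the same way in these fits.

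Of 8 tested genes that lie beside the HOX clusters, 2 were higher and 3 lower in rumen than in forebrain (median -0.10), 0 higher and 3 lower in rumen than in liver (median -0.83), and 3 higher and 2 lower in liver than in forebrain (median 1.00). All tested genes were called at 41.8%, 43.0% and 57.8% there. None was higher than in liver by DESeq2 or at an unadjusted p under 0.05 (0 genes), but MTX2 was with plain totals, which left 1 lower gene, and without Liver 1. Fewer were called in both rumen comparisons without any 1 of the Forebrain or Rumen libraries. In liver against forebrain fewer were called without Forebrain 1, Forebrain 2 or Rumen 1. More were called in both comparisons with liver without either Liver library. The number called among all tested genes moved the same way in these fits. SNX10, a neighbour of cluster A, stood at 296 and 272 CPM in forebrain, 19.7 and 50.9 CPM in liver and 7.65 and 3.12 CPM in rumen. SNX10 was lower in rumen than in forebrain, with a log2 difference of -5.72 ± 0.60 (edgeR adjusted p = 0.000578), and of -6.51 without Rumen 1.

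EVX1, the homeobox gene at the 5′ end of cluster A, had no counts in any library. Of the ParaHox genes, sisters of the HOX genes, 5 were in the table and 1 was tested, GSX1 of the ventral forebrain, which was lower in rumen and in liver than in forebrain. Its call in rumen was lost without Forebrain 2 or either Rumen library and its call in liver without Forebrain 2. Of 3 tested genes for proteins that bind PBX or HOX factors, 1 was lower in rumen than in forebrain, 2 were lower in rumen than in liver and 1 was higher in liver than in forebrain, with medians of -0.67, -0.96 and 0.47. With DESeq2's size factors or plain totals the first count was 2. In the first comparison fewer were called without any 1 of the Forebrain or Rumen libraries, and more without either Liver library. In the second fewer were called without either Rumen library, and in the third more without Liver 2. The number called among all tested genes moved the same way in these fits.

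The rumen libraries gave nearly equal levels for the HOX genes with the most counts. The ratio of Rumen 2 to Rumen 1 was 1.05 for HOXC4 (95% counting interval 0.952 to 1.16), 0.959 for HOXB3 (0.871 to 1.06) and 1.03 for HOXB2 (0.884 to 1.20). In liver the ratio of Liver 2 to Liver 1 ran from 0.413 for HOXA2 (0.182 to 0.881) to 2.91 for HOXA4 among the 8 tested HOX genes with more than 10 liver counts. Among all genes with 100 to 2000 summed counts in a tissue, 95% of genes lay within a 5.92-fold difference in liver, 1.72-fold in forebrain and 1.80-fold in rumen. HOXA4 at 2.44 and HOXD4 at 0.491 lay outside that range in rumen, and no HOX gene of that range of counts did in liver.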

How the data were processed

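The deposited table held the authors' raw counts per gene symbol in 1 column per library. The submitters' processing notes name HISAT2 2.0.5, featureCounts 1.5.0-p3 and edgeR 3.18.1. The build, annotation and strandedness behind the counts are not stated in any source used here. Overlapping genes may therefore share or lose reads, and no coordinates are given. The RefSeq gene table of ARS-UCD2.0 was used only for names and neighbours.

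The tests used edgeR 4.0.16 (R 4.3.3, limma 3.58.1) on these counts: TMM factors (0.812 to 1.20), filterByExpr, and an unblocked quasi-likelihood fit of a mean for each tissue, which left 3 residual degrees of freedom. Benjamini-Hochberg adjustment ran over all 11478 tested genes of each comparison, with a threshold of 0.05. Errors beside log2 differences are SE. CPM used the effective library size. Folds against a tissue without counts are lower bounds, computed as the other tissue's pooled level over the floor of 3 counts in the library pair. A ratio with an interval is of pooled counts, with an exact 95% binomial interval for counting error. DESeq2 1.42.0, other scalings, no filter, a replicate block, fits of 2 tissues and fits without each library were the alternatives. The scripts were tested on simulated data.

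Members and lists were chosen with earlier results of these data known, so no list was tested as a set. Values in every library are printed for members called in at least 1 comparison or with a mean of at least 1 CPM in a tissue, and the other members are given by counts. A few genes that entered the sums and counts are not reported here by name. Of the genes of other lists called with an absolute log2 difference of at least 2, only some are named with values. Total counts per library ran from 10271024 to 18528958, and 1359 symbols had no counts.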

Additional observations from a re-analysis of the deposited data

How the results depend on the processing

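Of 1331 refits of single genes under an alternative, 1212 kept direction and call, 91 lost the call, 20 gained it and 8 turned direction, all 8 without a call in either fit. These 8, on the log2 scale, were MEIS1 in liver minus forebrain (0.09 without Forebrain 1, down to -0.76 without another library and -0.90 on plain totals), PKNOX1 in liver minus forebrain (0.05 without Forebrain 2, down to -0.18 without another library and -0.56 on plain totals), PKNOX2 in rumen minus forebrain (-0.79 without Rumen 2, otherwise up to 0.99), and PBX4 in rumen minus forebrain (-0.02 without Forebrain 2, -1.22 without Rumen 1, otherwise up to 0.96), rumen minus liver (-0.26 without Liver 1, -0.81 without Rumen 1, otherwise up to 4.82) and liver minus forebrain (0.50 without Liver 1, otherwise down to -4.58). Without 1 library, members called higher numbered 11 to 16 (rumen minus forebrain), 8 to 17 (rumen minus liver) and 7 to 9 (liver minus forebrain), and members called lower 0 to 3, 0 to 1 and 3 to 5. In such fits 1 tissue has a lone library, assumed to vary like the others. All genes called numbered 2224 to 7463 (4802 with all libraries), 2476 to 7273 (4941) and 3990 to 8255 (6632) there, and 7415 for rumen minus forebrain with those 2 tissues alone. The older quasi-likelihood fit, chosen like plain totals after seeing the data, called 0 members lower in rumen than in liver. The summed HOX level of forebrain was 0.0893 CPM on plain totals. Libraries with the same number did not deviate together (correlations of 0.077, -0.088 and 0.017), and a replicate block called the same numbers of members, 13 and 2, 13 and 1, and 9 and 5, higher and lower in the order of comparisons above. Depth limits the forebrain HOX levels to the floor.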
